A study of Homo sapiens with 18 samples.

Results

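Annexins are a family of calcium-dependent membrane-binding proteins, and 9 of their genes, ANXA1, ANXA2, ANXA3, ANXA4, ANXA5, ANXA6, ANXA7, ANXA9 and ANXA11, of 20329 gene identifiers in the count files, are described here in HAP1 cells. They were chosen by name as a family, with their levels in all 6 groups already known, and ANXA1 was singled out on its pattern over the genotypes. Their levels and differences are therefore a description: no p-value is given for them, and where the text says which of them passed the threshold of the fit over all genes, this stands beside the share of all genes and is no test of the family. Tests with p-values are given for other genes.

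RNA was sequenced from HAP1 cells, a near-haploid human line derived from the chronic myeloid leukaemia line KBM-7, in 6 groups of 3 samples. Control A and control B are both wild type. ΔWAPL 3.3 and ΔWAPL 1.14 are clones that lack WAPL, the factor that releases cohesin from DNA. ΔSCC4 cells lack SCC4 (gene MAU2), a subunit of the complex that loads cohesin. ΔWAPL/ΔSCC4 cells were derived from a ΔWAPL line by a further knockout of SCC4, and their labels name clone 3.3. The knockouts were made with CRISPR and carry an inserted resistance cassette, blasticidin for WAPL and puromycin for SCC4, and each knockout group stands on 1 clone. The labels give the set (A or B) for the controls alone, and the run named in the library names places ΔWAPL 3.3, ΔSCC4 and ΔWAPL/ΔSCC4 beside control A and ΔWAPL 1.14 beside control B. These are bulk samples, in which fewer expressing cells and less RNA per cell cannot be told apart.

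Annexins bind acidic phospholipids when calcium rises, through a core of repeated domains that they share, and each carries its own N-terminal tail. The tails bind partners such as S100 proteins, so that annexin complexes can bridge membranes. ANXA1 is known for restraining inflammation through formyl peptide receptors and for its induction by glucocorticoids. ANXA2 with S100A10 binds plasminogen and its activator at the cell surface, ANXA5 binds exposed phosphatidylserine, and several members gather at torn plasma membrane.

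The samples held between 10007646 and 20711127 reads counted to genes. In the ΔSCC4 and ΔWAPL/ΔSCC4 samples MAU2 had 5 to 17 reads, against 736 to 1232 in the 12 other samples. WAPL transcript was lower but not lost, at 43.7 ± 5.65 CPM (reads per 1000000 counted, SD, n = 3) in ΔWAPL 3.3 against 99.2 ± 21.6 in control A, and at 41.3 ± 2.89 in ΔWAPL 1.14 against 121 ± 14.6 in control B. The blood cell genes PTPRC, CD34, SPI1, GATA1 and HBG1 had at most 2 reads in any sample. TAL1, a blood transcription factor, was at 72.9 CPM in control A and 54.4 in control B, and at 4.39 in ΔSCC4 and 2.71 in ΔWAPL 1.14. Of the epithelial genes, KRT8 stood at 8.14 ± 1.32 CPM in control A and 10.4 ± 0.84 in control B, at 2.35 to 3.72 in both ΔWAPL clones and ΔSCC4, and at 48.5 ± 3.42 in ΔWAPL/ΔSCC4. EPCAM stood at 1.17 and 1.51 CPM in the controls and 0.095 to 0.658 in the knockout groups. With samples unpaired, KRT18 did not pass the threshold against controls. CDH1, the other listed epithelial gene, did not pass the filter on low counts and was not tested. With same-numbered samples paired, KRT18 was at -0.21 ± 0.07 in ΔSCC4 against control A (log2, SE, adjusted p = 0.0270, edgeR). That pairing was picked from these data, so the p-value may be too small. The part of these genes in the results was not tested. No expressed marker is specific to HAP1, so the line itself was not checked.

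The sequence upstream of ANXA1 differs from that of the abundant members. In the 250 bases before the RefSeq start, ANXA1 held no CG dinucleotide, as did 6.06% of the 35116 upstream windows in the RefSeq table, whose median was 11. The 10 windows of ANXA2, ANXA4, ANXA5, ANXA6, ANXA7 and ANXA11 held 5 to 36. ANXA3 had 18 and ANXA9 had 4. The letters TATAAA, searched on both strands, lay 31 bases before the start in ANXA1 and in ANXA2 and 61 bases before the first of 3 starts of ANXA11, and were in 10.7% of all windows. ANXA10, an annexin outside the listed members, also held no CG, with TATAAA 29 bases before its start. The windows of ANXA1, ANXA2 and ANXA5 are shown because they span this contrast between the member that varied most and the 2 most abundant members. Each is from RefSeq (GRCh38.p14) and occurs once in GRCh37, and each is printed 5′ to 3′ on the gene's strand with every CG and TATAAA in capitals. In GRCh37 the ANXA1 window lies at chr9:75766531-75766780 (plus strand), that of ANXA2 at chr15:60690186-60690435 (minus strand) and that of ANXA5 at chr4:122618136-122618385 (minus strand).
ANXA1: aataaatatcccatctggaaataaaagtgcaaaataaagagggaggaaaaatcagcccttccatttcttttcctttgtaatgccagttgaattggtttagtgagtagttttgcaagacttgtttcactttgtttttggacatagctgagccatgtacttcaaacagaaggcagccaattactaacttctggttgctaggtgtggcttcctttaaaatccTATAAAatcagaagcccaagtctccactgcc
ANXA2: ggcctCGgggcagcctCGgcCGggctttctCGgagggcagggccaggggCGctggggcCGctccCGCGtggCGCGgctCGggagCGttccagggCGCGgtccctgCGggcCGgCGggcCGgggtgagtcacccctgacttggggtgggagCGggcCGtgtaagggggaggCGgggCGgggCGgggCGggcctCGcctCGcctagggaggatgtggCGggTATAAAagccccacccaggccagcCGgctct
ANXA5: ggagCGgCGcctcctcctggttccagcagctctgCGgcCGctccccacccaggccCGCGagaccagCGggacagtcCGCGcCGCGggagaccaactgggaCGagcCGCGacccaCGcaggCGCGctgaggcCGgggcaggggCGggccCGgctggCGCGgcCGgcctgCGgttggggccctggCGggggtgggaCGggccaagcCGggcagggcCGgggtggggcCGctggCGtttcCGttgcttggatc
The letters describe these windows and say nothing about which factors bind them.

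**Figure D1:**
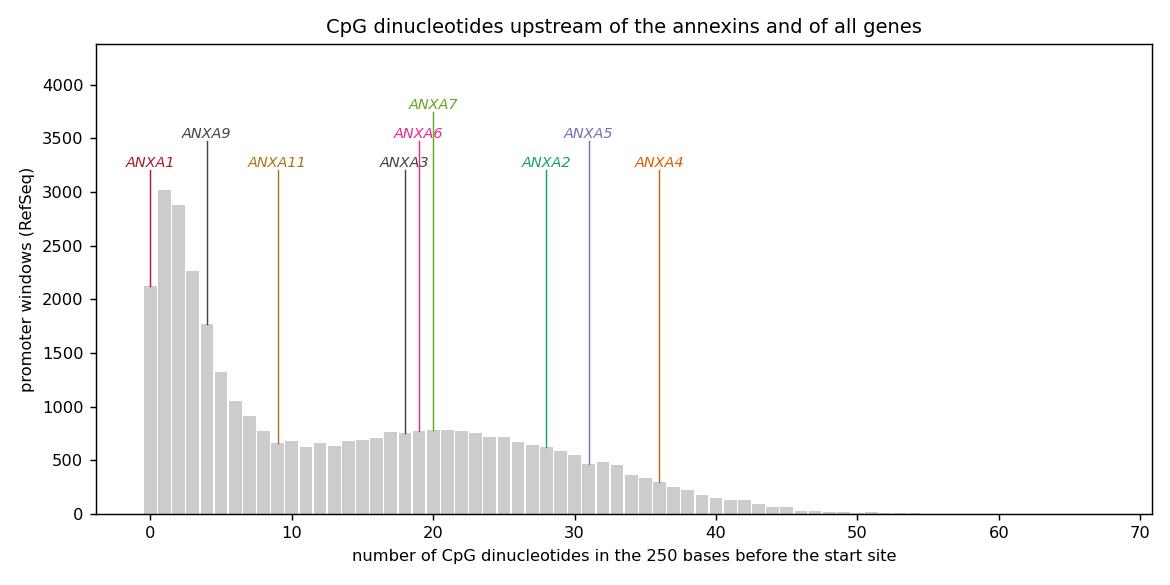
Grey bars count the RefSeq promoter windows (vertical axis) by the number of CpG dinucleotides in the 250 bases before the start site (horizontal axis), and each line marks the first window of 1 annexin. ANXA1 stands at 0, while ANXA2 stands at 28, ANXA5 at 31 and the first window of ANXA4 at 36.

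ANXA1 (ENSG00000135046, GRCh37 chr9:75766781-75785309, plus strand, 13 exons in its canonical transcript) was low in both controls and higher in each of the 4 knockout groups. In control A its samples stood at 32.6, 32.4 and 30.6 CPM, and in control B at 37.5, 27.6 and 48.1 CPM. In ΔWAPL 1.14 they stood at 130.4, 119 and 127 CPM. All 12 knockout samples lay above all 6 controls. In ΔWAPL 3.3 the samples stood at 332, 393 and 356 CPM, in ΔSCC4 at 191, 242 and 173 CPM, and in ΔWAPL/ΔSCC4 at 234, 236 and 226 CPM. By group mean the order was control A (31.9 ± 1.12, SD, n = 3), control B (37.7 ± 10.3), ΔWAPL 1.14 (126 ± 5.77), ΔSCC4 (202 ± 36.1), ΔWAPL/ΔSCC4 (232 ± 5.28) and ΔWAPL 3.3 (360.3 ± 31.0). The 2 controls overlapped, and so did ΔSCC4 and ΔWAPL/ΔSCC4, whereas the other neighbours in this order did not. Behind these values were 410 to 6657 ANXA1 reads per sample.

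**Figure D2:**
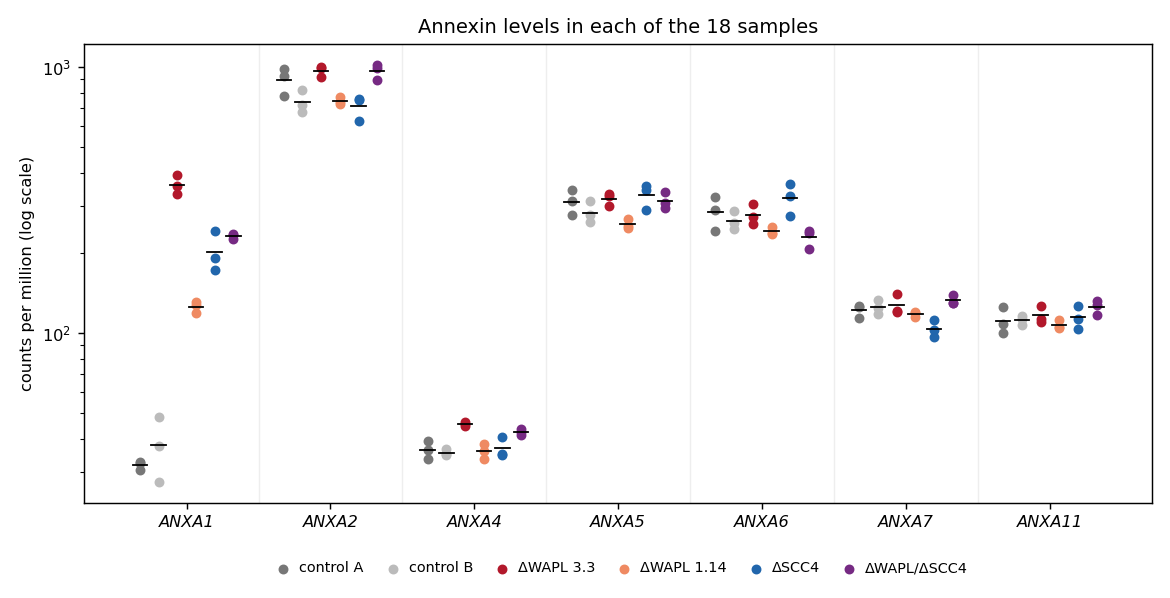
Each point is 1 sample, coloured by group, with CPM on a log axis, and the black bars are the means of the 3 samples of a group. For ANXA1 the 12 knockout points span 119 to 393 and the 6 control points 27.6 to 48.1, while the groups of the other 6 genes lie close together or overlap.

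On the log2 scale, ANXA1 was higher by 3.48 ± 0.15 (SE) in ΔWAPL 3.3 than in control A, an 11.2-fold difference, and by 1.73 ± 0.18 in ΔWAPL 1.14 than in control B, a 3.32-fold difference. With the clones fitted together and the set as a term of the model, the difference was 2.62 ± 0.28. It was larger by 1.77 ± 0.22 in clone 3.3 than in clone 1.14, and clone and set cannot be told apart. In ΔSCC4 the level was above control A by 2.65 ± 0.15, or 6.28-fold, and in ΔWAPL/ΔSCC4 by 2.86 ± 0.12, or 7.26-fold. ΔWAPL/ΔSCC4 stood below ΔWAPL 3.3, at -0.63 ± 0.11, and within the spread of ΔSCC4, at 0.20 ± 0.13. Control B over control A gave 0.23 ± 0.18. The comparisons of ΔWAPL 3.3, ΔSCC4 and ΔWAPL/ΔSCC4 with control A share those 3 control samples and are not independent of each other.

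The other annexins that could be measured spanned a far smaller range. For ANXA2, ANXA4, ANXA5, ANXA6, ANXA7 and ANXA11 the highest group mean was 1.17 to 1.40 times the lowest, whereas for ANXA1 it was 11.3 times. Their log2 differences from the matching controls ran from -0.06 to 0.31 in ΔWAPL 3.3, from -0.15 to 0.02 in ΔWAPL 1.14, from -0.34 to 0.15 in ΔSCC4 and from -0.33 to 0.22 in ΔWAPL/ΔSCC4. The median over the 7 measured annexins was 0.00 over both clones, beside 0.00 over all genes.

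Of the 7 annexins that passed the filter on low counts in every comparison, 1 passed an adjusted p of 0.05 (edgeR's quasi-likelihood test, adjusted over all genes) over both ΔWAPL clones, where 17.7% of all genes did, and it was ANXA1. ANXA1 was likewise the 1 annexin past it in ΔWAPL 3.3 against control A (8.07% of genes), ΔWAPL 1.14 against control B (20.1%), ΔSCC4 against control A (9.49%), ΔWAPL/ΔSCC4 against control A (7.95%), ΔWAPL/ΔSCC4 against ΔWAPL 3.3 (10.6%, lower) and the difference between the clones (2.65%). Between the controls, where 0.64% of genes passed, 0 of the 7 did. Between ΔWAPL/ΔSCC4 and ΔSCC4, where 27.3% of genes passed, 3 annexins did, namely ANXA2, ANXA6 and ANXA7. Since the genes were selected on these contrasts, the counts stand beside the share of all genes and nothing is read from them.

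**Figure D3:**
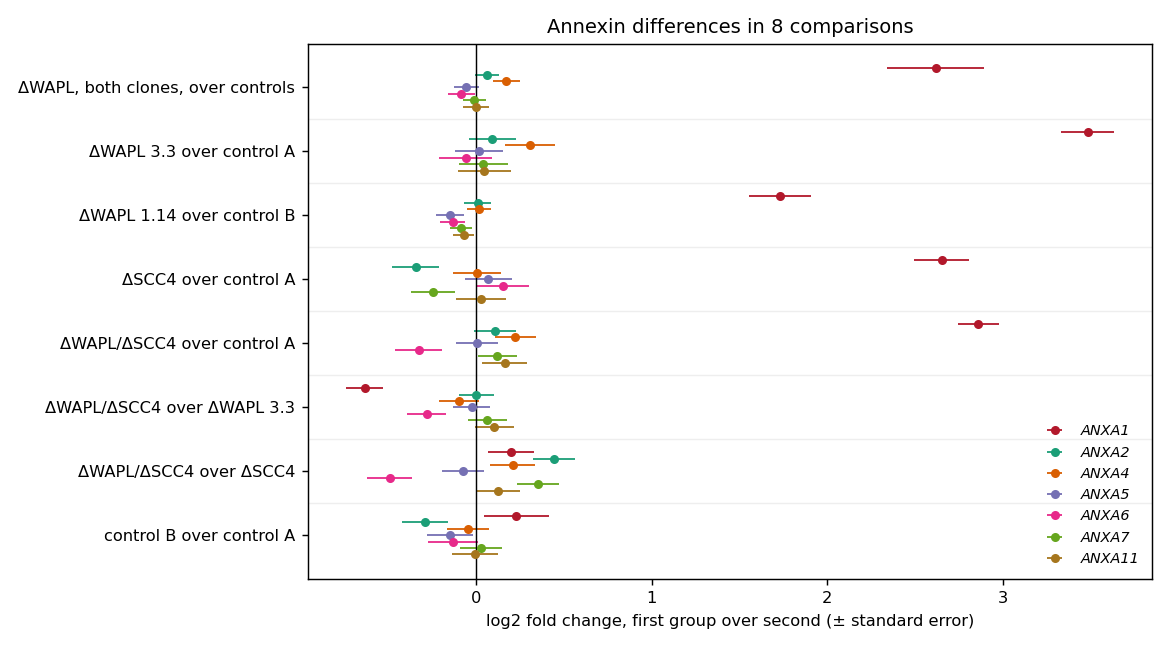
Points are log2 fold changes of 7 annexins in 8 comparisons (vertical axis), first group over second, and bars are standard errors. ANXA1 lies at 1.73 to 3.48 in the 5 comparisons of a knockout with controls, and the other 6 genes lie between -0.34 and 0.31 there.

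ANXA2 (GRCh37 chr15:60639333-60695082, minus strand), which forms a tetramer with S100A10 at the plasma membrane, had the most reads of the family in every group. Its samples stood at 981, 924 and 781 CPM in control A and at 999.6, 914 and 993 in ΔWAPL 3.3, and at 721, 817 and 678 in control B and 726, 774 and 739 in ΔWAPL 1.14. Each ΔWAPL clone overlapped the control of its own set. In ΔSCC4 the samples stood at 760.1, 751 and 625 CPM, below all of control A, and in ΔWAPL/ΔSCC4 at 995, 894 and 1019 CPM, above all of ΔSCC4 by 0.44 ± 0.12 on the log2 scale.

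ANXA6 (GRCh37 chr5:150480267-150537376, minus strand), a member with a duplicated core and 26 exons in its canonical transcript, went the other way between those groups. Its samples stood at 362, 328 and 275 CPM in ΔSCC4 and at 242, 206 and 238 CPM in ΔWAPL/ΔSCC4, a log2 difference of -0.49 ± 0.13 with no overlap. In control A they stood at 326, 291 and 242 CPM, overlapping ΔSCC4. Without replicate 2 of ΔSCC4 the difference was -0.48 and no longer passed the threshold.

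ANXA7 (GRCh37 chr10:75134859-75173834, minus strand), linked to vesicle fusion, was lowest in ΔSCC4, at 103, 112 and 96.1 CPM. It stood at 126, 125 and 114 CPM in control A and at 129.5, 129.7 and 138 CPM in ΔWAPL/ΔSCC4, which was 0.35 ± 0.12 above ΔSCC4 on the log2 scale. ΔSCC4 lay below both groups without overlap, but the call between ΔWAPL/ΔSCC4 and ΔSCC4 was lost whichever of their 6 samples was left out.

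ANXA4 (GRCh37 chr2:69871557-70054244, plus strand), a membrane-binding member of secretory epithelia, had the fewest reads of these 6. Its samples stood at 44.7, 46.1 and 45.5 CPM in ΔWAPL 3.3 and at 42.5, 43.5 and 41.5 CPM in ΔWAPL/ΔSCC4, all above the 33.5 to 39.2 CPM of control A. In ΔWAPL 1.14 they stood at 35.9, 38.4 and 33.6 CPM, overlapping the 34.7 to 36.5 CPM of control B. Neither ΔWAPL 3.3 nor ΔWAPL/ΔSCC4 passed the threshold against control A, at log2 differences of 0.31 ± 0.14 and 0.22 ± 0.12.

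ANXA5 (GRCh37 chr4:122589101-122618150, minus strand) ranged from 249 to 357 CPM over the 18 samples, with the lowest mean in ΔWAPL 1.14 (257 ± 10.9) and the highest in ΔSCC4 (330.2 ± 36.1). ANXA11 (GRCh37 chr10:81910645-81965328, minus strand), a member with a long N-terminal tail that tethers RNA granules to lysosomes, ranged from 99.9 to 131 CPM, and every group overlapped control A.

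The labels state no pairing, but replicate numbers were taken to pair the ΔSCC4 and control A samples from these data themselves. The pairing was thus picked on the same counts that were then tested, and p-values given with this replicate block may be too small. The deviations of same-numbered samples from their group means correlated at 0.115 to 0.675. Against the same control A samples, the mean of these correlations was -0.334 for ΔWAPL 3.3 and -0.039 for ΔWAPL/ΔSCC4. With that replicate block, 4 annexins passed between ΔSCC4 and control A in place of 1, and 5754 genes (46.0% of those tested) in place of 1186. On the log2 scale ANXA2 was then at -0.34 ± 0.04, ANXA7 at -0.25 ± 0.06 and ANXA6 at 0.16 ± 0.04, beside 2.64 ± 0.08 for ANXA1.

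ANXA3 and ANXA9 were close to absent. ANXA3 (GRCh37 chr4:79472901-79531605, plus strand) had 2 reads over all 18 samples, in 2 of them. ANXA9 (GRCh37 chr1:150954725-150968110, plus strand), a divergent member that has lost calcium binding in its core, had 6 reads in 5 samples. Neither entered a test. A group with no read allows a level of up to 0.0574 to 0.0756 CPM (3 reads over a group, counting error only). Outside the 9, ANXA8L1, ANXA8L2 and ANXA13 had 0 reads in all samples. ANXA10, found mainly in stomach, had 3 to 5 reads per sample in ΔSCC4 and 0 in the other 15 samples, which is at least 4.88-fold above the limit for control A and was not tested. ANXA8 and the ANXA2 pseudogenes were not analysed here. Reads of ANXA2 that also match its pseudogenes could have been lost or split by the counting, so its level is uncertain.

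Divided by the length of the canonical transcript, the annexins could be compared with each other. On this scale (CPM per kilobase) ANXA2 led in every group, at 458 to 624, followed in the controls by ANXA5, ANXA6 and ANXA7. ANXA1 ranked 5 in both controls, 3 in ΔWAPL 1.14, ΔSCC4 and ΔWAPL/ΔSCC4 and 2 in ΔWAPL 3.3. Its share of the summed level of the 9 genes was 2.36% ± 0.19 (SD, n = 3) in control A, 3.23% ± 1.10 in control B, 10.1% ± 0.72 in ΔWAPL 1.14, 14.6% ± 1.65 in ΔSCC4, 14.4% ± 1.05 in ΔWAPL/ΔSCC4 and 20.4% ± 2.10 in ΔWAPL 3.3. The order depended on the length used. Over the union of all annotated exons ANXA5 led and ANXA2 came next in every group, and ANXA1 ranked 6 in the controls and 3 in ΔWAPL 3.3, with a share of 2.38% in control A and 20.9% in ΔWAPL 3.3.

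**Figure D4:**
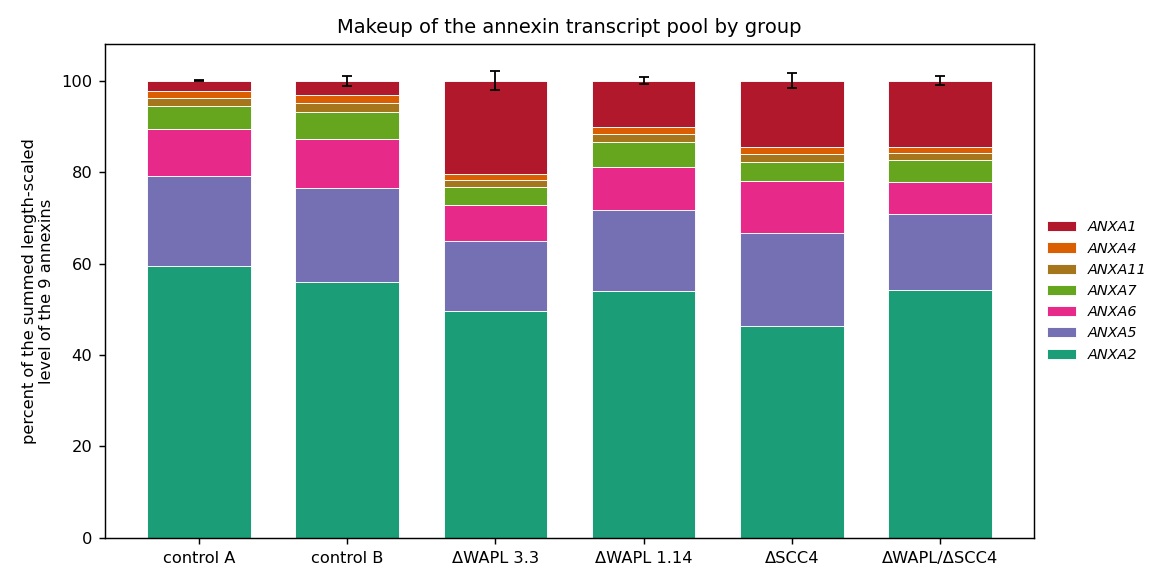
Stacked bars give the mean percentage of the summed length-scaled annexin level that each gene holds, by group (n = 3), with the SD of the ANXA1 share as the error bar. The ANXA1 segment is 2.36% in control A and 3.23% in control B, and between 10.1% and 20.4% in the knockout groups. ANXA3 and ANXA9 are too low to be seen.

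Summed without ANXA1, the family stood at 1763 ± 198 CPM in control A, 1857 ± 78.8 in ΔWAPL 3.3, 1619 ± 171 in ΔSCC4 and 1813 ± 115 in ΔWAPL/ΔSCC4, and at 1558 ± 129 in control B and 1505 ± 51.3 in ΔWAPL 1.14 (SD, n = 3). Each knockout mean lay within 1 SD of its control.

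Among the proteins that annexins bind, S100A11, the calcium-binding partner of the ANXA1 tail, rose in all 4 knockout groups. Its samples stood at 14.1, 13.1 and 11.7 CPM in control A and at 25.5, 32.0 and 33.6 CPM in ΔWAPL 3.3. In ΔSCC4 they stood at 37.8, 36.1 and 29.8 CPM and in ΔWAPL/ΔSCC4 at 35.3, 30.1 and 34.9 CPM. In set B they stood at 17.2, 19.6 and 14.9 CPM in control B and 27.2, 30.0 and 28.7 CPM in ΔWAPL 1.14. Every knockout sample lay above every control sample. S100A11 rose by 0.97 ± 0.11 (log2) over both ΔWAPL clones (adjusted p = 1.99e-05, edgeR), by 1.21 ± 0.17 in ΔWAPL 3.3 (0.000195), by 0.73 ± 0.11 in ΔWAPL 1.14 (0.00413), by 1.40 ± 0.15 in ΔSCC4 (0.000226) and by 1.36 ± 0.13 in ΔWAPL/ΔSCC4 (9.36e-05). Across the 18 samples its log2 CPM correlated with that of ANXA1 at r = 0.889, a description only, since the samples share clones and controls.

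**Figure D5:**
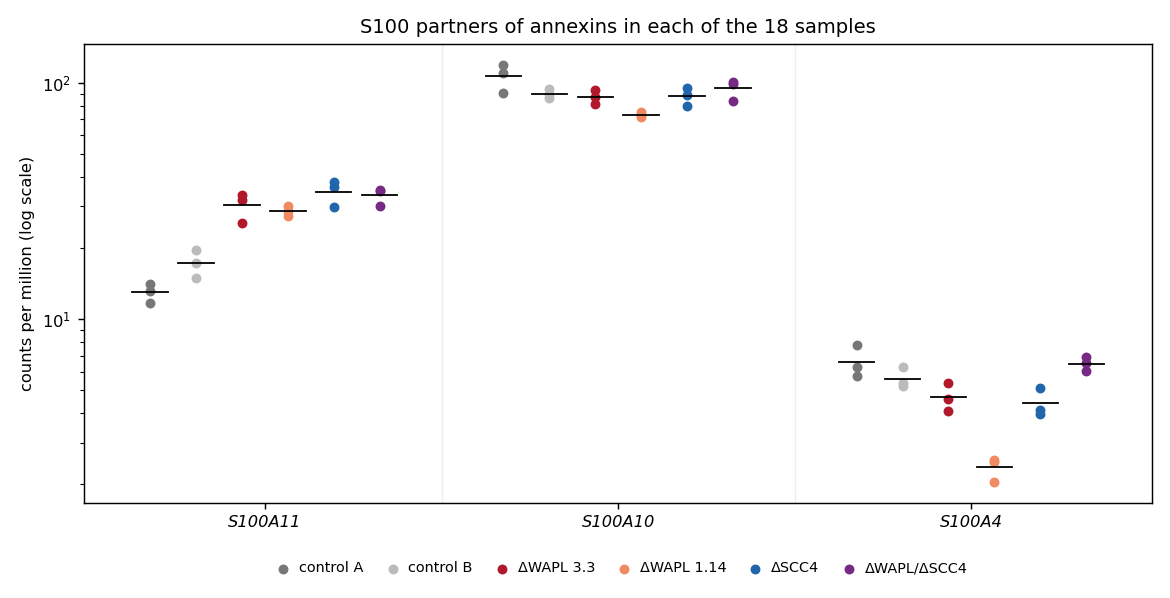
Points are single samples of S100 genes, coloured by group, in CPM on a log axis, with the group means as black bars. S100A11 spans 25.5 to 37.8 in the 12 knockout samples and 11.7 to 19.6 in the 6 controls.

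S100A10, which binds the tail of ANXA2, did not rise in any knockout group. It stood at 106 ± 14.8 CPM in control A, 87.1 ± 5.69 in ΔWAPL 3.3, 87.8 ± 7.69 in ΔSCC4 and 94.7 ± 9.29 in ΔWAPL/ΔSCC4, and at 89.8 ± 4.33 in control B and 73.3 ± 1.89 in ΔWAPL 1.14. Over both clones it fell, at -0.29 ± 0.07 (log2, adjusted p = 0.0123, edgeR), and in ΔWAPL 1.14, at -0.30 ± 0.06 (0.0142), where the call was lost in a fit over all 18 samples and without replicate 1 of control B or replicate 1 or 3 of ΔWAPL 1.14. In ΔWAPL 3.3 the value was -0.31 ± 0.15 (0.332). In ΔSCC4 it was -0.29 ± 0.14 without the replicate block (0.261) and -0.29 ± 0.06 with it (0.00433).

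S100A6, a partner of several annexins, had 377 to 480 reads per sample in control A and 326 to 377 in control B. It had 0 reads in ΔWAPL 1.14, at least 393-fold below control B, with 3 counts over the group as the floor. In ΔSCC4 it had 0 to 2 reads per sample, 364-fold below control A with a 95% exact interval from counting of 124 to 1769. In ΔWAPL 3.3 it was at 30.9 ± 4.24 CPM and in ΔWAPL/ΔSCC4 at 33.3 ± 3.60 CPM, beside 27.7 ± 4.55 CPM in control A. TAL1 was low in the same 2 groups as S100A6, and no test of that likeness was made. S100A4 fell in ΔWAPL 1.14, at -1.25 ± 0.13 (log2, adjusted p = 0.00077, edgeR).

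Of the 7 listed annexin partners, 1 rose and 2 fell over both ΔWAPL clones, beside 17.7% of all genes past the threshold, with a median of -0.29 beside 0.00 over all genes. In ΔWAPL 3.3 1 rose and 0 fell (8.07% of all genes passed), in ΔWAPL 1.14 1 rose and 4 fell (20.1%), in ΔSCC4 1 rose and 1 fell (9.49%), or 1 and 4 with the replicate block (46.0%), and in ΔWAPL/ΔSCC4 1 rose and 0 fell (7.95%). S100A11 was the one that rose each time. AHNAK, a giant scaffold that ANXA2 and S100A10 recruit to the membrane, was at -0.23 ± 0.06 in ΔWAPL 1.14 (adjusted p = 0.0352, edgeR), a call lost with DESeq2, in a fit over all 18 samples, against all 6 controls and without replicate 1 or 2 or 3 of ΔWAPL 1.14, and at -0.57 ± 0.05 in ΔSCC4 with the block (5.21e-06). The receptors for ANXA1 were close to absent: FPR1 had 9 reads over all samples, and FPR2 and FPR3 had 0.

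Of 13 tested of 15 listed genes of membrane repair, a process in which annexins take part, 1 rose and 4 fell over both clones, where 17.7% of all genes passed. In ΔWAPL 3.3 1 rose and 3 fell (8.07% of all genes passed), in ΔWAPL 1.14 1 and 6 (20.1%), in ΔSCC4 1 and 2 (9.49%), or 3 and 3 with the block (46.0%), and in ΔWAPL/ΔSCC4 1 rose and 0 fell (7.95%). The list's median was -0.09 over both clones, beside 0.00 over all genes. MYOF, a ferlin of membrane fusion, fell in ΔWAPL 3.3 at -1.48 ± 0.20 and in ΔWAPL 1.14 at -3.26 ± 0.10 and rose in ΔWAPL/ΔSCC4 by 1.43 ± 0.15 (log2, adjusted p = 0.000151, 4.08e-06 and 0.000157, edgeR). The controls stood apart for this gene, at 7.37 ± 0.43 CPM in A and 14.2 ± 0.48 CPM in B.

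CAV1, the main coat protein of caveolae, fell over both clones at -1.32 ± 0.15 (log2, adjusted p = 1.97e-05, edgeR) and EHD2, which holds caveolae at the membrane, at -1.10 ± 0.15 (7.32e-05). EHD2 also fell in ΔSCC4, at -1.61 ± 0.20 (0.000434). CAV1 had only 9 to 57 reads per sample, and its call in ΔSCC4 (-1.15 ± 0.30, 0.0376) was lost with DESeq2 and without replicate 2 or 3 of control A or replicate 1 or 3 of ΔSCC4. SYT7, a calcium sensor of lysosomal exocytosis, rose by 0.79 ± 0.12 over both clones (0.000264) and by 1.66 ± 0.22 in ΔSCC4 (0.000819).

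Among genes of plasminogen activation, the system whose surface receptor includes ANXA2 with S100A10, PLAUR, the urokinase receptor, fell in all 4 knockout groups. It stood at 6.79 ± 0.79 CPM in control A, 3.24 ± 0.33 in ΔWAPL 3.3, 1.99 ± 0.47 in ΔSCC4 and 3.94 ± 0.51 in ΔWAPL/ΔSCC4, and at 7.36 ± 0.39 in control B and 1.76 ± 0.10 in ΔWAPL 1.14. The log2 changes were -1.09 ± 0.19, -1.79 ± 0.22, -0.78 ± 0.17 and -2.06 ± 0.11 in the order ΔWAPL 3.3, ΔSCC4, ΔWAPL/ΔSCC4 and ΔWAPL 1.14 (adjusted p = 0.00140, 0.000434, 0.0154 and 3.92e-05, edgeR). The call in ΔWAPL/ΔSCC4 was lost without replicate 2 of control A or replicate 1 of ΔWAPL/ΔSCC4. PLAU, urokinase itself, fell over both clones at -0.73 ± 0.14 (0.00206) and in ΔSCC4 at -1.57 ± 0.21 (0.000853). Of 5 listed genes, 3 were tested over both clones, of which 2 fell and 0 rose (17.7% of all genes passed), and both of the 2 tested fell in ΔSCC4 (9.49%) and in ΔWAPL 1.14 (20.1%). In ΔWAPL 3.3 (8.07%) and in ΔWAPL/ΔSCC4 (7.95%) 1 fell. PLAT, tissue plasminogen activator, at 8 to 28 reads per sample, was at 1.22 ± 0.34 and 1.15 ± 0.27 there. It passed the threshold in both, which is no test of it. The first call was lost with DESeq2 and without replicate 2 or 3 of control A or replicate 1 or 3 of ΔWAPL 3.3, and the second with DESeq2 and without replicate 2 or 3 of control A or replicate 1 or 2 or 3 of ΔWAPL/ΔSCC4. PLAT did not pass the filter on low counts in ΔSCC4 or ΔWAPL 1.14. Its entry in ΔWAPL 3.3 and ΔWAPL/ΔSCC4 may have rested on the groups in which it was high, so no p-value is given.

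PTGS2, the inducible cyclooxygenase, which takes its substrate from the phospholipases that annexins can inhibit, rose in all 4 knockout groups from a very low level. It had 5 to 9 reads per control sample and 14 to 43 per knockout sample. It passed the filter on low counts only in comparisons that hold a knockout group, the groups in which it was high, so no p-value is given. The log2 difference was 1.95 ± 0.26 over both clones, 2.24 ± 0.32 in ΔWAPL 3.3, 1.68 ± 0.41 in ΔWAPL 1.14, 1.71 ± 0.36 in ΔSCC4 and 1.57 ± 0.33 in ΔWAPL/ΔSCC4. PTGS2 passed the threshold in each of these, which is no test of it. The call in ΔWAPL 1.14 was lost without replicate 1 of control B or replicate 1 or 2 of ΔWAPL 1.14, that in ΔSCC4 without replicate 2 of ΔSCC4, and that in ΔWAPL/ΔSCC4 with DESeq2 and without replicate 2 of control A or replicate 1 of ΔWAPL/ΔSCC4. Of the 8 tested of 9 listed genes of phospholipases and prostanoids, 3 rose, PTGS2 among them, and 1 fell over both clones, where 17.7% of all genes passed (median 0.14 beside 0.00 over all genes). The one that fell was PTGS1, the constitutive cyclooxygenase, at -0.53 ± 0.16 (adjusted p = 0.0351, edgeR), a call lost without replicate 3 of control A or replicate 1 or 2 of ΔWAPL 3.3 or replicate 1 or 2 of control B or replicate 1 or 2 of ΔWAPL 1.14. In ΔWAPL 3.3 2 rose and 0 fell, PLA2G4A and PTGS2 (8.07% of all genes passed), and in ΔWAPL 1.14 2 and 0, PTGES and PTGS2 (20.1%). The call of PLA2G4A was lost with the replicate block and without replicate 2 of control A or replicate 2 of ΔWAPL 3.3. That of PTGES was lost without replicate 1 of control B or replicate 1 or 2 or 3 of ΔWAPL 1.14. In ΔSCC4 1 rose and 0 fell (9.49%), or 1 and 2 with the block (46.0%), and in ΔWAPL/ΔSCC4 2 and 0 (7.95%).

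Of 6 tested of 7 listed genes of the glucocorticoid response, which includes ANXA1 itself by background knowledge, 0 rose and 1 fell over both clones (17.7% of all genes passed), 0 passed in ΔWAPL 3.3 (8.07%), 2 fell in ΔWAPL 1.14 (20.1%), and 1 rose in ΔSCC4 (9.49%) and in ΔWAPL/ΔSCC4 (7.95%). With the block 2 rose and 1 fell in ΔSCC4 (46.0%). TSC22D3, a direct target of the receptor, fell over both clones at -0.36 ± 0.09 (log2, adjusted p = 0.0113, edgeR), and was at 0.55 ± 0.07 in ΔSCC4 with the block (8.67e-05), where FKBP5, another target, was at -0.56 ± 0.06 (2.81e-05). NR3C1, the receptor and the 1 gene counted as rising in ΔSCC4 without the block and in ΔWAPL/ΔSCC4, was at 1.32 ± 0.36 and 1.63 ± 0.34 there. It had 4 to 10 reads per sample in control A. It may therefore have passed the filter on low counts only through the knockout groups, in which it was high. No p-value is given for it, and its passing the threshold is no test. Control B held 16 to 38 reads, and neither call held against all 6 controls. The first was also lost with DESeq2 and without replicate 2 of control A or replicate 1 or 2 or 3 of ΔSCC4, and the second without replicate 2 of control A or replicate 1 of ΔWAPL/ΔSCC4.

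Of 7 tested of 8 listed genes for exposure of phosphatidylserine, the lipid that ANXA5 binds, 1 rose over both clones, where 17.7% of all genes passed: ATP8A1, a flippase that moves the lipid inward, by 0.95 ± 0.14 (log2, adjusted p = 0.00023, edgeR). In ΔWAPL/ΔSCC4 it was at 0.59 ± 0.15 (0.0369), a call lost in a fit over all 18 samples and without replicate 2 of control A or replicate 1 or 2 of ΔWAPL/ΔSCC4. In ΔSCC4 0 of the 7 passed without the block, where 9.49% of all genes did. With the block, where 46.0% of all genes passed, ATP8A1 was at 0.53 ± 0.08 (0.000376). Of the copines, another family of calcium-dependent membrane binders, 3 of 6 tested of 9 listed rose over both clones and 0 fell, beside the same 17.7%: CPNE8 by 0.72 ± 0.14 (0.00163), CPNE7 by 0.34 ± 0.07 (0.00461) and CPNE2 by 0.28 ± 0.08 (0.0174). In ΔWAPL 3.3 1 of 5 tested rose, CPNE8 (8.07% of all genes passed), and in ΔWAPL 1.14 the same 3 of 6 did (20.1%). In ΔSCC4 1 of 6 rose, CPNE2 (9.49%), or 2 with the block (46.0%). The calls in ΔWAPL 3.3, in ΔWAPL 1.14 and, without the block, in ΔSCC4 were each lost on leaving out single replicates. Over both clones CPNE7 and CPNE8 kept the call under every alternative, and CPNE2 lost it only with the replicate block. In ΔWAPL/ΔSCC4 0 of the 6 passed, beside 7.95% of all genes.

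The genes beside ANXA1 also differed between the groups. Within 500 kb lie 2 other protein-coding genes that passed the filter on low counts in at least 1 comparison. ALDH1A1, a retinaldehyde dehydrogenase 71423 bases from ANXA1, had 3 to 5 reads per control sample, 33 to 42 in ΔWAPL 3.3 and 19 to 26 in ΔWAPL 1.14. In ΔSCC4 it had 0 to 1 reads per sample and in ΔWAPL/ΔSCC4 2 to 7. It passed the filter on low counts only in comparisons that hold a ΔWAPL clone, the groups in which it was high, so no p-value is given. All 6 samples of the ΔWAPL clones lay above all other samples.

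TMC1, a channel subunit of sensory hair cells 313568 bases from ANXA1, fell in both ΔWAPL clones. It stood at 10.97 ± 2.58 CPM in control A and 4.40 ± 0.51 in ΔWAPL 3.3, and at 10.69 ± 1.54 in control B and 5.02 ± 0.18 in ΔWAPL 1.14, log2 changes of -1.33 ± 0.20 (adjusted p = 0.000314, edgeR) and -1.10 ± 0.12 (0.000916). In ΔSCC4 (11.7 ± 2.41 CPM) and ΔWAPL/ΔSCC4 (11.47 ± 2.07 CPM) it overlapped control A, and it was higher in ΔWAPL/ΔSCC4 than in ΔWAPL 3.3 by 1.38 ± 0.17 (3.07e-05). ANXA1, by contrast, stood above control A in ΔSCC4 and in ΔWAPL/ΔSCC4 too.

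Around all 9 annexins, 17 of 88 neighbours within 500 kb passed over both ΔWAPL clones (19.3%, beside 17.7% of all genes), 6 of 87 in ΔWAPL 3.3 (6.9% beside 8.07%), 17 of 87 in ΔWAPL 1.14 (19.5% beside 20.1%), 6 of 84 in ΔSCC4 (7.14% beside 9.49%) and 4 of 85 in ΔWAPL/ΔSCC4 (4.71% beside 7.95%). These shares stood near those of all genes. RORA, a nuclear receptor beside ANXA2, was lower than control A in ΔWAPL 3.3 (-0.84 ± 0.17), ΔSCC4 (-0.79 ± 0.18) and ΔWAPL/ΔSCC4 (-1.12 ± 0.18), with adjusted p of 0.00387, 0.0182 and 0.00268 (edgeR), each lost against all 6 controls, those in ΔWAPL 3.3 and ΔSCC4 also in a fit over all 18 samples and that in ΔSCC4 also without replicate 1 or 2 of ΔSCC4. FRAS1, a matrix protein of basement membranes beside ANXA3, rose in ΔSCC4 by 1.59 ± 0.21 (0.000628). FUT11, a fucosyltransferase beside ANXA7, fell in ΔWAPL 1.14 at -1.21 ± 0.16 (0.00196) and in ΔSCC4 at -1.27 ± 0.21 (0.00326), and was at 0.70 ± 0.17 in ΔWAPL 3.3 (0.0159), a call lost without replicate 2 of control A or replicate 2 of ΔWAPL 3.3. In ΔWAPL/ΔSCC4 FUT11 rose by 0.86 ± 0.14 (0.00355). Other neighbours past the threshold over both clones included SMIM43 beside ANXA5, BMP2K beside ANXA3, MXD1, PCBP1, NFU1 and ASPRV1 beside ANXA4, PLAU, P4HA1 and CFAP70 beside ANXA7, RFX5, SEMA6C, LYSMD1 and CDC42SE1 beside ANXA9, and PRXL2A beside ANXA11. Of these, BMP2K, PCBP1, P4HA1, CFAP70 and RFX5 lost the call on leaving out single replicates. In ΔSCC4 ZSWIM8 beside ANXA7 (0.66 ± 0.15, 0.0182) and MINDY1 beside ANXA9 (0.64 ± 0.14, 0.0153) passed as well, and both calls were lost without replicate 2 of control A or replicate 1 or 2 of ΔSCC4. In ΔWAPL 1.14 ANTXR1 beside ANXA4 (0.29 ± 0.05, 0.00866) passed and was lost in a fit over all 18 samples and against all 6 controls, and SYNPO beside ANXA6 (0.0487) and ZNF687 beside ANXA9 (0.0488) passed but were lost with DESeq2 and on leaving out single replicates. Past the threshold between ΔWAPL/ΔSCC4 and ΔWAPL 3.3 or ΔSCC4, but in no comparison with controls without the replicate block, were AAK1, SNRPG, GMCL1, PCYOX1 and GFPT1 beside ANXA4, EXOSC9 beside ANXA5, RBM22 beside ANXA6, MCU, SEC24C and ENSG00000272916 beside ANXA7, and SETDB1, ADAMTSL4, PI4KB, CERS2 and ENSA beside ANXA9. Of these, SNRPG and GFPT1 kept the call when any single replicate was left out. With the block, all of these genes but RBM22 passed between ΔSCC4 and control A, where 46.0% of all genes did.

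The genes whose log2 CPM was most like that of ANXA1 over the 18 samples were GNG11, a G protein gamma subunit (r = 0.948), UNC79, a subunit of the sodium leak channel complex (0.925), TRO, a trophinin (0.924), CAMK2B, a calmodulin-dependent kinase (0.917), and IKZF1, a lymphoid zinc finger factor (0.912). GNG11 stood at 3.13 ± 0.13 CPM in control A, 14.1 ± 1.43 in ΔWAPL 3.3, 10.9 ± 1.54 in ΔSCC4, 12.1 ± 0.72 in ΔWAPL/ΔSCC4, 4.05 ± 0.49 in control B and 5.52 ± 0.62 in ΔWAPL 1.14. The most opposite were IGFBP5, which binds insulin-like growth factors (-0.957), RELN, a secreted guidance protein (-0.945), and CFAP300, a cilia assembly factor (-0.936). IGFBP5 stood at 430.5 ± 9.31 CPM in control A and 196 ± 3.85 in control B, and at 32.0 ± 2.17 in ΔWAPL 3.3, 72.3 ± 3.77 in ΔSCC4, 39.1 ± 3.91 in ΔWAPL/ΔSCC4 and 81.8 ± 0.86 in ΔWAPL 1.14. Within the family r with ANXA1 was 0.698 for ANXA4, 0.315 for ANXA11, 0.269 for ANXA2, 0.249 for ANXA5, -0.036 for ANXA7 and -0.054 for ANXA6. The 18 samples share 6 groups and a common scaling, so these values describe likeness only.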

How the data were processed

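Polyadenylated RNA from 18 HAP1 samples was made into stranded libraries and sequenced. The authors aligned the reads to hg19 with TopHat2 and counted them per Ensembl gene with HTSeq. The submitters' processing notes give TopHat2 2.0.9 and DESeq2 1.10.1, the paper names another TopHat version, and the gene annotation is not given in the sources used here. The deposited values are raw counts per gene and sample, with no normalization. Of the 20329 gene identifiers, 19637 (96.6%) were matched to symbols and positions in a GENCODE annotation of GRCh37. Entries that name no gene (no feature 4.04 to 5.22%, ambiguous 1.47 to 1.73% and not unique 14.3 to 16.1% of each file's total) were left out of library sizes.

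Counts were scaled with TMM factors to CPM, reads per 1000000 counted. Differences were fitted in edgeR 4.0.16 (R 4.3.3) by quasi-likelihood tests on the groups compared, after filterByExpr, with a term for the set when the clones were combined, and p-values were adjusted over all genes (Benjamini-Hochberg, 0.05). DESeq2 1.42.0 was an alternative. A standard error is the log2 fold change divided by the root of its F statistic. Numbers were taken to pair samples where all 3 same-number correlations exceeded 0.1. This rule used the counts that were then tested, so p-values with the replicate block may be too small. No source used here says that replicates were separate cultures, so p-values measure the spread between these samples, which may be technical. The count of identical library pairs was 0. The fits were tested on simulated counts.

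The annexins, the gene lists and the tests were chosen with earlier results of these data known. Named were all 9 annexins and the other annexin genes. From the lists, S100A10, S100A11, FPR1 and FPR2 were always named, and otherwise genes past the threshold, at most 4 per list and comparison by size. Neighbours within 500 kb were named where past the threshold (all of them for ANXA1), as were the 5 genes most and the 3 least correlated with ANXA1, by log2 CPM with a prior count of 2. FPR3, and the members given with and without the replicate block, were named after their values were seen. A neighbouring gene past the threshold is not reported here.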

Additional observations from a re-analysis of the deposited data

Results flagged for a closer look

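Of all genes, 2.65% differed between the clones in the effect of losing WAPL, by the test of the difference itself (edgeR, adjusted over all genes). Among the annexins, the listed genes, the marker genes and the reported neighbours these were the 7 that follow. ANXA1 was higher by 1.77 more (log2) in ΔWAPL 3.3 than in ΔWAPL 1.14, which is a description, since it was chosen with this pattern known. S100A6 differed by 11.70, a fitted value that depends on the prior count because ΔWAPL 1.14 had 0 reads. MYOF fell by less in ΔWAPL 3.3, the difference being 1.81. For PLAUR the difference was 0.99, and it was lost with the replicate block (adjusted p = 0.132, edgeR) and without replicate 1 or 2 of ΔWAPL 1.14. TAL1 differed by 4.32, and KRT8 by 1.01, which was lost with the replicate block. FUT11, a neighbour of ANXA7, differed by 1.93. Clone and set cannot be told apart. Of 11 genes examined in the 6 controls, 0 had a sample that stood apart from the others.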

How the results depend on the processing

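ANXA1 kept its direction and its side of the threshold under all 124 alternatives. Of the values of the other annexins, 726 counted as the same, 8 lost the threshold and 8 gained it. Another 2, of ANXA2 against all 6 controls, moved in value without passing it. Of all 868 values 48 had the opposite sign, 0 of them of a difference that had passed, as ANXA2 in ΔWAPL 1.14, at -0.13 against all 6 controls. A fit over all 18 samples gave 2 annexins and 1753 genes in ΔWAPL 3.3 (ANXA4 at 0.32), 2 annexins and 2556 genes in ΔSCC4, and 408 genes between the controls. Against all 6 controls 2 annexins passed in ΔWAPL 3.3 (ANXA4 at 0.33) and 2718 genes in ΔSCC4. Between the controls DESeq2 gave 142 genes and no filter 127, and for the difference between the clones at least 10 counts in every sample gave 211.

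The replicate block gave 4 annexins and 5754 genes in ΔSCC4, the 1 comparison whose numbers were taken to pair samples. Elsewhere the samples shared only a number, and the block gave 162 genes between the controls and 173 for the difference between the clones, and took the call from ANXA7 between ΔWAPL/ΔSCC4 and ΔSCC4 and from S100A10, CPNE2 and PTGS1 over both clones (S100A10 at adjusted p = 0.0692, edgeR), FUT11 in ΔWAPL 3.3 and ATP8A1 in ΔWAPL/ΔSCC4.

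Leaving out 1 replicate gave 1 to 2 annexins in ΔWAPL 1.14 (ANXA5 joining without replicate 3 of control B), in ΔWAPL/ΔSCC4 against control A (ANXA6 joining without replicate 3 of control A) and in ΔWAPL/ΔSCC4 against ΔSCC4. Genes past the threshold ran from 1841 to 2865 over both clones, 686 to 1180 in ΔWAPL 3.3, 1415 to 4820 in ΔWAPL 1.14, 662 to 2317 in ΔSCC4, 586 to 1552 in ΔWAPL/ΔSCC4, 861 to 1805 against ΔWAPL 3.3, 2080 to 5020 against ΔSCC4, 0 to 107 between the controls and 218 to 372 for the difference between the clones. The causes were not tested. Of 203 calls of list genes and neighbours, 109 held under every alternative. Genes with under 10 reads per sample, such as PTGS2 in the controls, are limited by depth.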
